A study of Homo sapiens with 6 samples.

Results

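The genes of the cytosolic ribosomal proteins were described in EndoC-βH1 cells, an established human pancreatic beta cell line, after exposure to a cytokine cocktail. Members were chosen by symbol: RPL or RPS followed by a number, with or without an A or X, plus RPLP0, RPLP1, RPLP2, RPSA and the paralogs whose symbols end in L or in L and a digit. Loci of pseudogenes were left out. The rule gave 84 genes, 32 of the small and 52 of the large subunit, among 55868 named loci and 61695 loci in all. Of these, 77 were core genes and 7 were paralogs (RPL3L, RPL7L1, RPL10L, RPL22L1, RPL26L1, RPL39L and RPS27L). The symbols RPS10L and RPL12L3 also met the letters of the rule, but RefSeq lists them as the pseudogenes RPS10P5 and RPL12P12. A second locus named RPL41, on chromosome 7, held a processed pseudogene of 75 bases, and all 3 loci were set aside.

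The study sequenced poly(A)-selected RNA of 6 libraries. The 3 cytokine libraries came from cells given IL-1β at 5 ng/ml, TNF-α at 10 ng/ml, IFN-γ at 50 ng/ml and IL-17 at 100 ng/ml together, and the 3 control libraries received none of these. All cells adhered for 24 h in serum-free medium with 11 mM glucose beforehand. The protocol describes 24 h with or without cytokines, while the labels describe the controls as taken before exposure, so exposure and time in culture cannot be told apart from the labels alone. The labels do not say whether the 3 libraries of a group came from separate cultures, so the p-values reflect library-to-library spread that could be technical. The line was made from human fetal pancreas by transfer of growth-promoting genes and is a single proliferating line, which limits it as a model of adult islets.

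The cytosolic ribosome is built from a small subunit, which reads the messenger RNA, and a large subunit, which joins amino acids into protein. Nearly every ribosomal protein is present once per ribosome, and the messengers for them are among the most abundant of a cell. Most of these messengers begin with a terminal oligopyrimidine (TOP) tract, a C followed by further pyrimidines at the first transcribed base. Through it the kinase mTORC1 and the protein LARP1 regulate their translation and stability. In beta cells the same ribosomes carry the heavy load of proinsulin synthesis at the endoplasmic reticulum.

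The values available were group values from the authors' deposited tables, not values per library. The count table gave a mean normalized count over the 6 libraries, a log2 fold change with its SE and a DESeq adjusted p for each locus, a locus being a bundle of overlapping assembled transcripts. The group means below were computed from that mean and that fold change. A pair of further tables gave Cuffdiff group values in FPKM (fragments per kilobase of transcript, scaled to the number of mapped fragments), for genes and for isoforms, with q-values. Every fold change is cytokines over control, so a negative value means lower in cytokine-exposed cells, and a member passed the threshold at an adjusted p or a q under 0.05. The average library held 40881975 normalized counts. Of 12 beta cell markers, 11 had at least 50 normalized counts in control cells. Together they summed to 120756 normalized counts after cytokines and 157458 in control cells. The INS locus, which also holds IGF2 and H19, had a log2 fold change of -0.57. MAFA, G6PC2 and SLC30A8 were at -1.63, -1.74 and -0.63, and PDX1 was at -0.02. Going the other way, the IAPP locus, which also holds SLCO1B1 and SLCO1B3, was at 2.25 and ABCC8 at 0.15. Among markers of other cell types, GCG, PRSS1, PNLIP, PTPRC and all 3 endothelial genes were at or near 0. Others were expressed: TTR and IRX2 of the alpha cell list had 30936 and 4892 normalized counts after cytokines and 35144 and 3996 in control cells, CPA1 of the acinar list had 1422 after cytokines and 1905 in control cells, and KRT19 of the duct list had 3553 after cytokines and 2937 in control cells. Of the leukocyte list, CD14 had 75.4 normalized counts after cytokines and 92.9 in control cells. The CD68 locus, which also holds EIF4A1, had 22526.5 after cytokines and 24412.7 in control cells. Of the delta cell list, SST had 80.0 after cytokines and 63.0 in control cells. The LEPR locus, which also holds LEPROT, had 4091 after cytokines and 3700 in control cells. SOX9, a duct marker, had 79.6 normalized counts after cytokines and was higher than in control cells by 2.40 on the log2 scale (adjusted p 2.48e-13 in the authors' deposited DESeq table). The 4 stellate and fibroblast markers summed to 1440 normalized counts after cytokines and 571 in control cells, nearly all of it COL1A1, with DCN at 1.42 after cytokines and 1.02 in control cells, and the part of these markers in the results was not tested. In RNA from whole cultures, fewer cells of a type and less RNA per cell cannot be told apart.

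The starts of 12 members are shown because the TOP tract, which most ribosomal protein genes share, stands there. Each line gives 15 bases before and 15 bases from the annotated first transcribed base, 5′ to 3′ on the gene's own strand, from RefSeq's table for GRCh38.p14. Capitals mark the unbroken run of pyrimidines that begins at the annotated first base, whatever its length. The first 5 genes were lower after cytokines, the next 3 were higher, and the last 4 lacked a tract by the rule used.
RPLP0 (chr12:120201097-120201126, minus strand): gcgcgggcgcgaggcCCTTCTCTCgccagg
RPSA (chr3:39406705-39406734, plus strand): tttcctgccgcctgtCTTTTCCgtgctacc
RPS6 (chr9:19380222-19380251, minus strand): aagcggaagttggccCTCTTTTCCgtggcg
RPL22 (chr1:6199581-6199610, minus strand): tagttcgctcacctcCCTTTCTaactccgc
RPL13A (chr19:49487593-49487622, plus strand): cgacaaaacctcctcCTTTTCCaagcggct
RPS12 (chr6:132814554-132814583, plus strand): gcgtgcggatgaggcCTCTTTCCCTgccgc
RPL10 (chrX:154398362-154398391, plus strand): caggcggaggagcgcCTCTTTCCCTTCggt
RPS27A (chr2:55232673-55232702, plus strand): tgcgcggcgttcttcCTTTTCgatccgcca
RPS27L (chr15:63157463-63157492, minus strand): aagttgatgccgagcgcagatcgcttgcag
RPL3 (chr22:39319609-39319638, minus strand): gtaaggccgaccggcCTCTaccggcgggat
RPL4 (chr15:66504841-66504870, minus strand): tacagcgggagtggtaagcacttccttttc
RPL27 (chr17:42998404-42998433, plus strand): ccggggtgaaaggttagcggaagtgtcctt

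The tract was searched on the gene's own strand as a C at the annotated start followed by at least 4 more C or T. Of the 67 members with a start in the table, 47 (70.1%) held it, against 1404 (5.14%) of all 27305 genes with a start there. It stood at the start of 39 of 54 members that were lower after cytokines, 3 of 4 that were higher and 5 of 8 that did not pass the threshold. RPL10 and RPS27A have other annotated starts without the tract, and a gene was counted when any of its starts held it. RPL3 missed the rule by 1 base, with only 3 pyrimidines after its C. RPL4 has a run of pyrimidines a few bases downstream of its annotated start, which the rule does not count. Among the 5 paralogs with a start in the table, RPL22L1 alone held the tract. The letters CCGGAAG, the core bound by ETS-family transcription factors, were searched on both strands from 250 bases before to 50 bases after the start. They stood in 24 of the 67 members (35.8%), against 12.2% of all genes.

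Most ribosomal protein messengers were slightly lower after cytokines. Of 83 members tested in the authors' deposited count table, 67 were lower past the threshold, 4 were higher and 12 did not pass. Among all 30206 loci tested there, 37.7% passed in either direction, 19.7% lower and 18.0% higher. Ribosomal protein loci are abundant, and abundant loci passed more often: of 7868 loci with at least 1000 normalized counts, 78.2% passed, 45.3% lower and 32.9% higher. The median log2 fold change of the members was -0.25, with quartiles at -0.39 and -0.10, in the authors' deposited count table. The median member thus stood at 83.9% of its control level. The same median was 0.05 over all tested loci and -0.06 over those with at least 1000 counts. Of 83 members, 76 had a fold change below 0, and the median SE of a member was 0.025. With the median of the abundant loci set to 0, 57 members were lower, 5 were higher, and the members' median was -0.20.

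**Figure D1:**
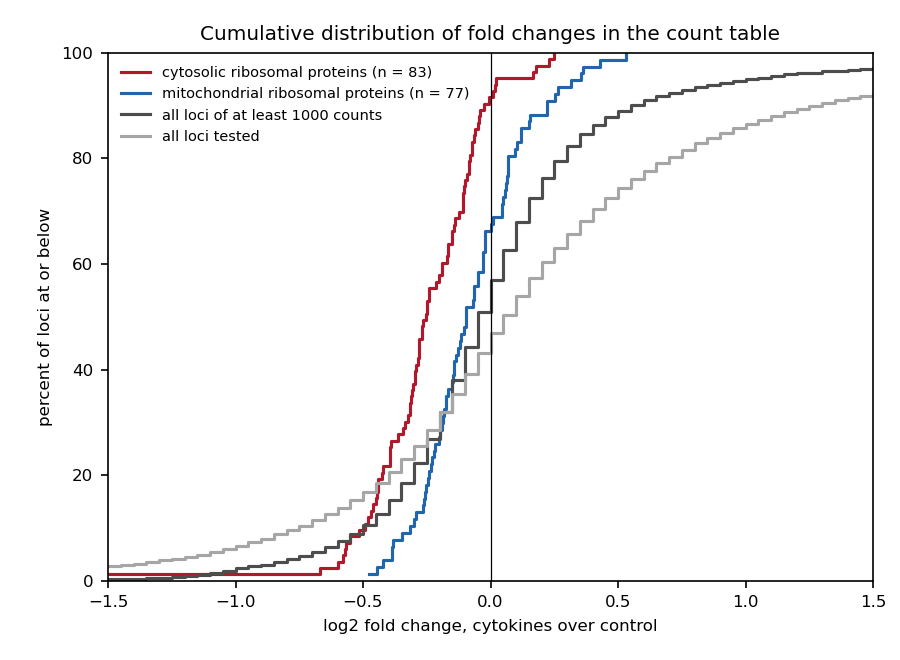
Cumulative distribution of log2 fold changes, cytokines over control, in the authors' deposited count table: the x axis is the log2 fold change and the y axis the percent of loci at or below it, for 83 cytosolic ribosomal protein loci (red), 77 mitochondrial ribosomal protein loci (blue), all loci of at least 1000 counts (dark grey) and all loci tested (light grey, both greys in steps of 0.05). The red curve stands left of the others over most of its height, with its median at -0.25, against -0.10 for the mitochondrial loci.

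The messengers together took a smaller share of the RNA in cytokine-exposed cells. The FPKM of the 77 core genes summed to 37786 in cytokine-exposed cells and 44133 in control cells, in the authors' deposited FPKM gene table. All 84 members held 7.52% of the summed FPKM of all loci after cytokines and 9.65% in control cells. By normalized counts, which favour long transcripts, the share was 2.10% after cytokines and 2.70% in control cells. The normalized counts of all loci summed to 41918228 after cytokines and 39845723 in control cells. The FPKM of all loci also summed to more after cytokines. Part of the fall of both shares thus came from a larger total. The median core gene had 453 FPKM in cytokine-exposed cells and 504 FPKM in control cells. The core genes ranged from 177 FPKM (RPL22) to 1425 FPKM (RPL37A) after cytokines and from 208 FPKM (RPS25) to 1715 FPKM (RPL37A) in control cells. RPL37A and RPS27 had the highest control FPKM, and RPS27, a zinc-binding protein of the small subunit, took 1243 FPKM after cytokines and 1233 FPKM in control cells. These are levels per length from the authors' deposited FPKM gene table, with no spread per library to set beside them.

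**Figure D2:**
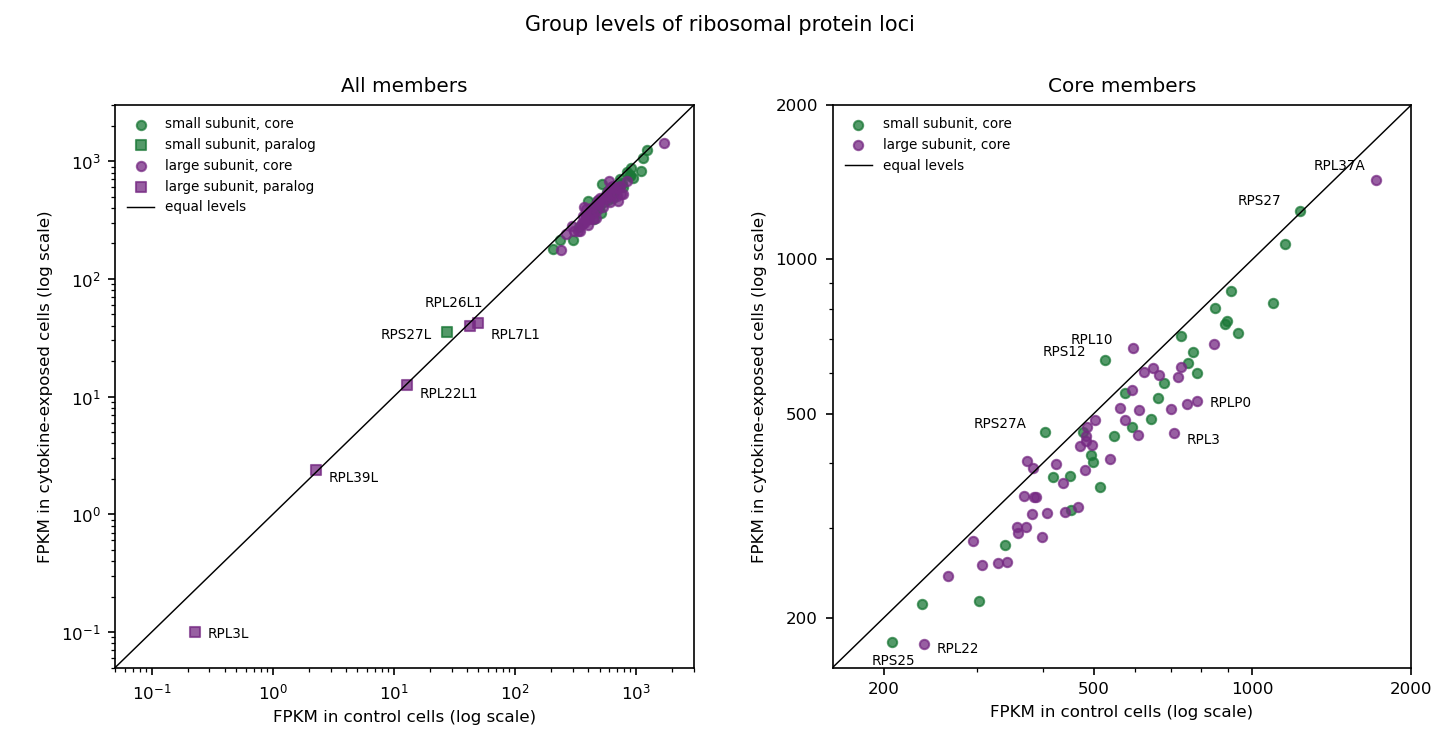
Group FPKM of ribosomal protein loci from the authors' deposited FPKM gene table, cytokine-exposed cells on the y axis and control cells on the x axis, both on log scales, with all members above 0.05 FPKM in control cells on the left and the core genes enlarged on the right. Circles are core genes, squares are paralogs, and the line marks equal levels. Most core genes lie below the line. Those above it include RPS12, RPL10, RPS27A, RPL37 and, barely, RPS27. The paralogs sit at 49.7 FPKM or less in control cells.

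Of 32 small-subunit genes tested in the authors' deposited count table, 26 were lower, 3 were higher and 3 did not pass, with a median log2 fold change of -0.25. Of 51 large-subunit genes tested there, 41 were lower, 1 was higher and 9 did not pass, with a median of -0.27. The difference of these medians, small minus large, was 0.02 on the log2 scale, and whether the subunits differ was not tested. Summed over core genes in the authors' deposited FPKM gene table, small-subunit FPKM was 17399 after cytokines and 20025 in control cells, a log2 ratio of -0.20. Large-subunit FPKM was 20387 after cytokines and 24108 in control cells, a log2 ratio of -0.24.

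**Figure D3:**
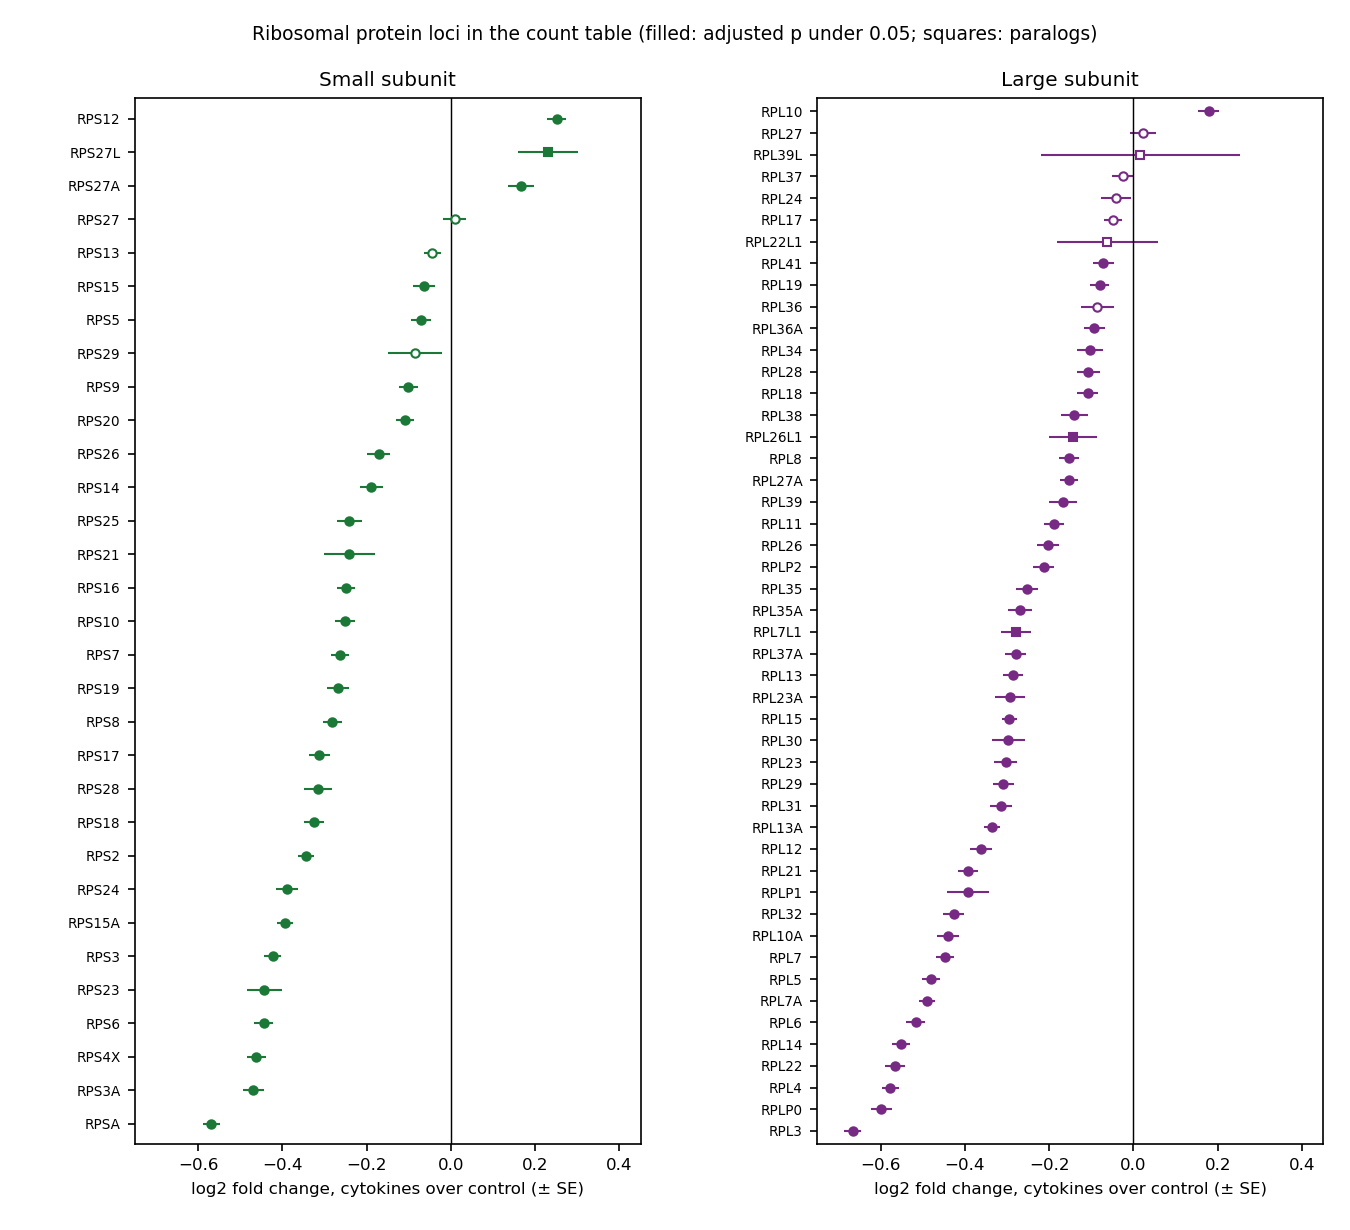
Log2 fold changes, cytokines over control, of small-subunit (left) and large-subunit (right) loci in the authors' deposited count table, ordered by value, with bars of 1 SE. Filled symbols passed an adjusted p of 0.05, circles are core genes and squares are paralogs, and RPL3L, RPL10L and a few members not reported here are not drawn. Values run from -0.67 for RPL3 to 0.25 for RPS12, and the 4 filled symbols right of 0 are RPS12, RPS27L, RPS27A and RPL10.

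The deepest falls were in the large subunit. RPL3, a protein near the peptidyl transferase centre where peptide bonds form, had 25397 normalized counts in cytokine-exposed cells and 40319 in control cells. Its log2 fold change was -0.67 ± 0.02 (SE) with a DESeq adjusted p of 9.91e-251 in the authors' deposited count table. RPL3 lies on chromosome 22 at positions 39312882 to 39320389 (GRCh38, minus strand, 10 exons in its main transcript), and its introns hold 2 small nucleolar RNAs that the locus includes. RPLP0, the base of the ribosomal stalk that recruits elongation factors, had 27028 normalized counts after cytokines and 40917 in control cells (log2 fold change -0.60 ± 0.02, adjusted p 9.23e-134 by the authors' DESeq). The 2 groups thus differed by many times the SE for both genes. RPL4, which lines the tunnel through which the new chain leaves, had 20175 counts after cytokines and 30089 in control cells (log2 fold change -0.58 ± 0.02, adjusted p 3.96e-186 in the deposited DESeq table).

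RPSA, also known as the laminin receptor precursor, sits on the small subunit near the messenger's exit and fell furthest among small-subunit genes. It had 17892 normalized counts in cytokine-exposed cells and 26538 in control cells, with a log2 fold change of -0.57 ± 0.02 and an adjusted p of 2.15e-170 in the authors' deposited DESeq table. RPL22, an RNA-binding protein on the surface of the large subunit, had 8862 counts after cytokines and 13124 in control cells, and its log2 fold change was -0.57 ± 0.02 (deposited DESeq adjusted p 1.15e-129). In the deposited FPKM gene table RPL22 was at -0.42, and its locus also holds RP1-120G22.11. RPL14 at -0.55 and RPL6 at -0.52 followed RPL22 in the deposited count table. RPS6, the substrate of the S6 kinases downstream of mTORC1, was at -0.44 ± 0.02.

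The stalk proteins differed in size of change. RPLP1 and RPLP2, the acidic proteins that form the flexible tip on RPLP0, had log2 fold changes of -0.39 ± 0.05 and -0.21 ± 0.03 in the authors' deposited count table, and both passed the threshold there. RPLP2 did not pass in the authors' deposited FPKM gene table (log2 fold change -0.18, q 0.147). RPLP1 had 388 FPKM after cytokines and 481 FPKM in control cells, and RPLP2 had 344 FPKM after cytokines and 389 FPKM in control cells.

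RPL5 and RPL11 join the 5S ribosomal RNA in a small particle that, when unassembled, can bind MDM2 and stabilise p53. RPL5 had 9914 normalized counts in cytokine-exposed cells and 13831 in control cells, a log2 fold change of -0.48 ± 0.02 in the authors' deposited count table. RPL11 had 12037 counts after cytokines and 13718 in control cells, a log2 fold change of -0.19 ± 0.02 there. Both passed the threshold in both of the authors' deposited gene tables. RPL13A, which in human monocytic cells is released from the ribosome after IFN-γ and silences translation of certain messengers, was at -0.34 ± 0.02, with 28285 counts after cytokines and 35684 in control cells. The RPL13A locus also holds ALDH16A1, FLT3LG and other genes. Named isoforms of all genes there other than RPL13A made up 2.85% of its isoform FPKM over both groups.

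Other abundant members moved within the same range. RPS3, which lines the messenger's entry channel and is also a DNA repair factor, had 23237 normalized counts after cytokines and 31155 in control cells, a log2 fold change of -0.42 ± 0.02 in the authors' deposited count table. RPS15A stood at -0.39 ± 0.02 in that table, but its locus also holds ARL6IP1, and the FPKM of its own isoforms gave a smaller log2 ratio of -0.20. RPS19, the gene most often mutated in Diamond-Blackfan anaemia, was at -0.27 ± 0.03. RPS24, another gene of that disease, was at -0.39 ± 0.03.

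In 4 members the messenger was higher after cytokines. RPS12, a protein of the small subunit's beak, had 13190 normalized counts in cytokine-exposed cells and 11085 in control cells, with a log2 fold change of 0.25 ± 0.02 and an adjusted p of 1.41e-27 in the authors' deposited DESeq table. RPS27L, a paralog of RPS27 that p53 is known to induce, had 891 counts after cytokines and 760 in control cells (log2 fold change 0.23 ± 0.07, deposited DESeq adjusted p 0.0035). RPL10, which helps the subunits to join and is encoded on the X chromosome, had 12540 counts after cytokines and 11074 in control cells (log2 fold change 0.18 ± 0.02, deposited DESeq adjusted p 4.34e-12). RPS27A, translated as a fusion with ubiquitin that is then cut off, had 6656 counts after cytokines and 5933 in control cells (log2 fold change 0.17 ± 0.03, deposited DESeq adjusted p 3.89e-07). The same 4 genes were higher with a q under 0.05 in the authors' deposited FPKM gene table. All 4 loci hold no other gene apart from a small nucleolar RNA inside RPS12 and inside RPL10.

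The 12 members that did not pass in the authors' deposited count table included RPL17, RPL24, RPL27, RPL36, RPL37, RPS13, RPS27, RPS29, RPL3L, RPL22L1 and RPL39L. The core genes among them had log2 fold changes between -0.09 and 0.02 there. RPL27 was at 0.02 ± 0.03, with 8959 counts after cytokines and 8816 in control cells. RPS27, the parent of RPS27L, was at 0.01 ± 0.03. RPL36 was at -0.09 ± 0.04 and shares its locus with HSD11B1L.

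The authors' deposited FPKM gene table, made by another tool from the same 6 libraries, called fewer members. It gave 48 lower, 4 higher and 31 that did not pass among 83 tested, where 35.7% of its 21865 tested genes passed, 17.9% lower and 17.8% higher. The median log2 fold change of members was -0.24 in that table, against 0.02 over all genes tested in it. Both tables called 51 members in the same direction and none in opposite directions. The count table alone called 20, the FPKM gene table alone called 1, and neither called 11. The 20 were all lower and had log2 fold changes between -0.32 and -0.06 in the deposited count table. The lowest of them were RPS18, at -0.32 ± 0.02 and at -0.31 in the deposited FPKM gene table (q 0.0506), and RPS28, at -0.31 ± 0.03 and at -0.29 in the deposited FPKM gene table (q 0.33). That 1 gene was RPS13, at -0.04 ± 0.02 with an adjusted p of 0.078 in the deposited count table and -0.26 with a q of 0.0026 in the deposited FPKM gene table. The RPS13 locus also holds PIK3C2A, and the FPKM of RPS13's own isoforms gave a log2 ratio of -0.28. RPL36A likewise shares its locus, with HNRNPH2, and stood at -0.09 in the deposited count table and -0.29 in the deposited FPKM gene table. The sign of the fold change differed between the tables for 3 members, RPL27 and RPL37 among them, and none of the 3 passed in either.

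Core genes with longer coding parts tended to have deeper falls. Across the 77 core genes, the log2 fold change in the authors' deposited count table and the length of the coding part in GENCODE release 44 had a Pearson's r of -0.53 and a Spearman's rho of -0.44. The r was -0.49 over the 31 small-subunit genes and -0.56 over the 46 large-subunit genes. With the fold changes of the deposited FPKM gene table in place of the count table, r was -0.53. These are correlations across genes that share the same libraries, so they describe these tables and carry no p. Over 5773 other protein-coding loci of a single gene with at least 1000 counts, r between coding length and fold change was -0.02. Those loci were not limited to the coding lengths of the core genes, so like lengths were not compared. The mean normalized count, which rises with transcript length, had an r of -0.40 with the fold change across core genes. The control FPKM, a level per length, had an r of -0.04 with the FPKM fold change, and the GC content of the coding part had 0.12 with the fold change in the count table.

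The pattern by length was not an even slope. Of 25 core genes with a coding part under 400 bases, 20 were lower, with a median log2 fold change of -0.21 in the authors' deposited count table. Of 30 core genes with 400 to 600 bases, 24 were lower, with a median of -0.19. Of 22 core genes with more than 600 bases, 21 were lower and RPL10 was higher, with a median of -0.45. RPL41, the shortest with 75 coding bases, was at -0.07 ± 0.03, and RPL4, the longest with 1281, was at -0.58 ± 0.02. RPL22 stood apart among short genes, with 384 coding bases and -0.57 (-0.42 in the deposited FPKM gene table). RPL8, with 771 coding bases, was at -0.15. Whether length or a property that goes with it accounts for the difference was not tested.

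**Figure D4:**
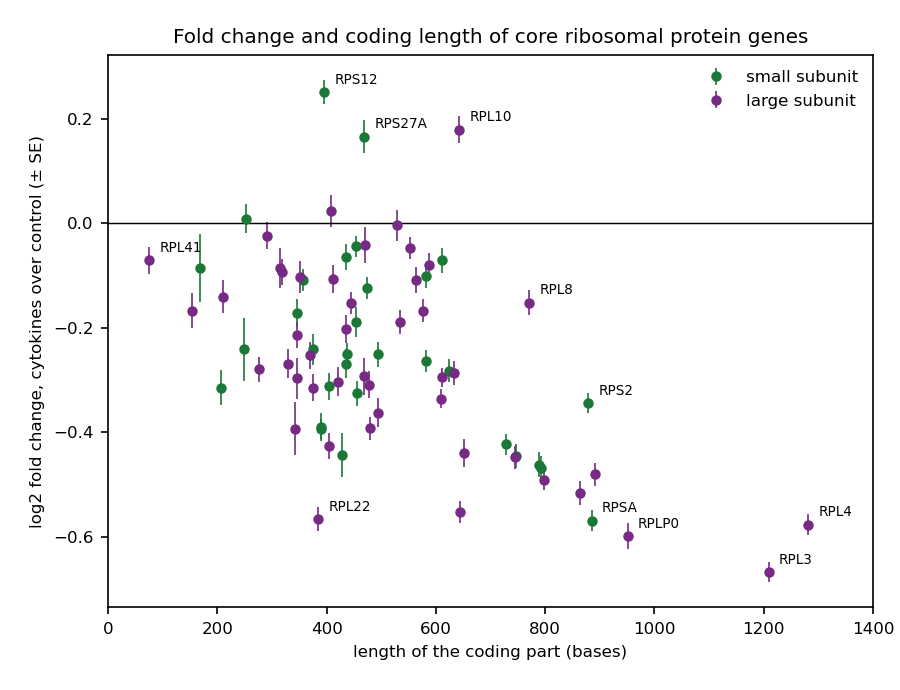
Log2 fold change, cytokines over control, in the authors' deposited count table (y axis, bars of 1 SE) against the length of the coding part in bases (x axis) for 77 core genes, small subunit in green and large subunit in purple. Genes over 600 bases have a median of -0.45, with RPL10 as the only one above 0, and genes of at most 600 bases scatter from -0.57 to 0.25.

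The core genes were also grouped by position in the genome. The 12 core genes on chromosome 19 had a median log2 fold change of -0.11 in the authors' deposited count table, and 10 of them were lower. The 65 core genes on other chromosomes had a median of -0.28, and 55 of them were lower. By the deposited FPKM gene values, 3 of 12 were lower on chromosome 19 and 45 of 65 elsewhere, and the medians were -0.08 on chromosome 19 and -0.26 elsewhere. This grouping was looked at with the values known and was not tested. Many ribosomal protein genes carry small nucleolar RNAs in their introns, which guide chemical changes in ribosomal RNA. The 27 core loci that include small nucleolar RNAs or, in RPL8 and RPL28, a microRNA had a median of -0.29, and the 50 without them had a median of -0.25.

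The paralogs were far less abundant than the genes they resemble. Their median was 12.4 FPKM in cytokine-exposed cells and 12.9 FPKM in control cells, in the authors' deposited FPKM gene table. RPL7L1, a relative of RPL7, had 42.4 FPKM after cytokines and 49.7 FPKM in control cells, and its log2 fold change was -0.28 ± 0.03 in the deposited count table beside -0.45 ± 0.02 for RPL7. RPL7L1 did not pass in the deposited FPKM gene table (q 0.179). RPL26L1 had 39.6 FPKM after cytokines and 42.8 FPKM in control cells, and its log2 fold change was -0.14 ± 0.06 (deposited DESeq adjusted p 0.035) beside -0.20 ± 0.03 for RPL26. RPL26L1 did not pass in the deposited FPKM gene table (q 0.0591) or after re-centring (adjusted p 0.263).

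RPS27L had 35.1 FPKM after cytokines and 27.7 FPKM in control cells in the authors' deposited FPKM gene table, where its log2 fold change was 0.34, while its parent RPS27 was at 0.01. RPL22L1 had 12.4 FPKM after cytokines and 12.9 FPKM in control cells, and its log2 fold change was -0.06 ± 0.12 in the deposited count table, while RPL22 was at -0.57 ± 0.02. RPL39L, known from the testis, had 2.38 FPKM after cytokines and 2.28 FPKM in control cells, a log2 fold change of 0.02 ± 0.24 in the deposited count table, while RPL39, a short protein of the exit tunnel, was at -0.17 ± 0.03. RPL39 passed in the deposited count table but not in the deposited FPKM gene table (q 0.0844). RPL3L, the form of RPL3 in striated muscle, had 0.979 normalized counts after cytokines and 4.71 in control cells and did not pass (adjusted p 0.174 in the deposited DESeq table). RPL10L, the testis form of RPL10, had 0.634 counts after cytokines and 0.323 in control cells and was not tested by the authors. Differences between a paralog and its parent were not tested.

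At the level of isoforms, the authors' deposited FPKM isoform table listed 796 transcripts of the 84 genes and tested 614. Of these, 51 were lower and 5 were higher at a q under 0.05, in 44 genes, where 9.87% of all 95649 isoforms tested passed, 4.70% lower and 5.17% higher. The leading isoform, the one with the highest mean FPKM, was tested in 82 genes, and 39 of these were lower and 3 were higher. It made up over 90% of the annotated isoform FPKM of its gene in 42 genes in control cells and under 50% in 10. Protein-coding transcripts held 82.9% of the members' isoform FPKM after cytokines and 83.3% in control cells, and transcripts with a retained intron held 4.93% after cytokines and 4.99% in control cells. Transcripts annotated for nonsense-mediated decay, a pathway that removes messengers with early stop codons, held 1.88% after cytokines and 2.00% in control cells. Of 183 tested transcripts with a retained intron, 3 were lower and none was higher by the deposited Cuffdiff q. Among the 3 was RPL14-208, the leading form of RPL14, with 94.8% of its isoform FPKM after cytokines and 94.4% in control cells. RPL14-208 is annotated at 794 bases, and the coding forms RPL14-201 and RPL14-202 at 7072 and 7136 bases. Whether reads were assigned to the right form was not tested. The leading form of RPL13, RPL13-213, is also annotated with a retained intron. It held 38.9% after cytokines and 38.4% in control cells and did not pass. No isoform that passed the threshold moved its share of its gene by 10 percentage points or more.

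**Figure D5:**
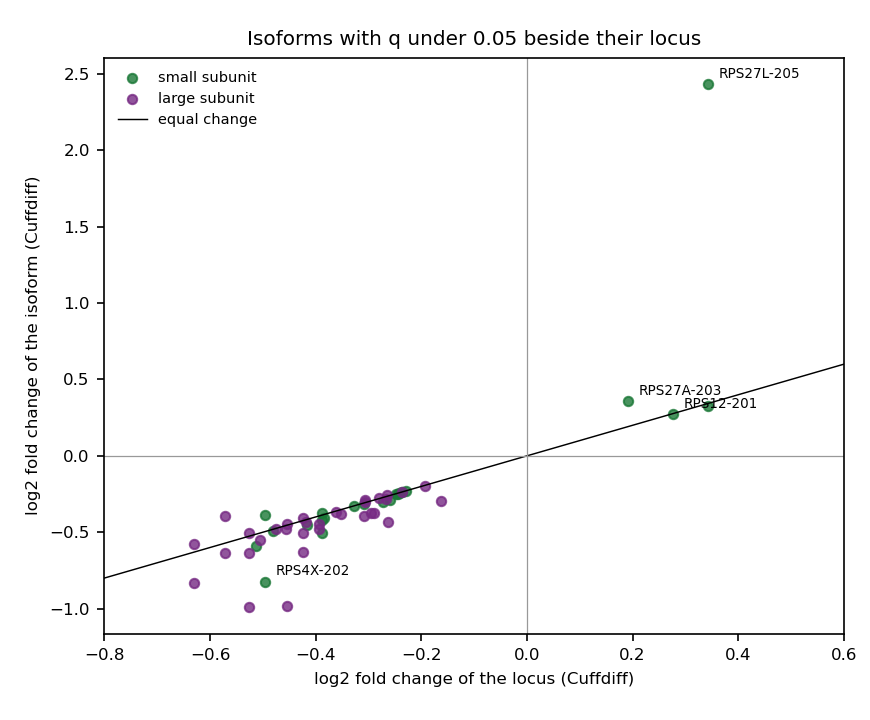
Log2 fold change, cytokines over control, of each isoform with a q under 0.05 (y axis) against that of its locus (x axis), both from the authors' deposited Cuffdiff tables, small subunit in green and large subunit in purple. The line marks equal change. The isoforms of 1 gene are not drawn. Most of the isoforms lie near the line in the lower left, and the minor form RPS27L-205 lies furthest above it.

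Isoforms of RPS12, RPS27A and RPS27L were higher, as these genes were as a whole. RPS12-201 had 614 FPKM after cytokines and 508 FPKM in control cells in the authors' deposited isoform table. RPS27A-203 had 201 FPKM after cytokines and 157 FPKM in control cells, and its share of the gene was 43.7% after cytokines and 38.9% in control cells. RPS27L-202 had 26.1 FPKM after cytokines and 20.8 FPKM in control cells, and the minor form RPS27L-205 had 1.27 FPKM after cytokines and 0.236 FPKM in control cells (deposited Cuffdiff q 0.0475). No isoform of RPL10 passed, and its leading form RPL10-206 had 549 FPKM after cytokines and 497 FPKM in control cells (q 0.271).

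Isoforms of the most changed genes were among those that were lower. RPL3-202 had 350 FPKM after cytokines and 522 FPKM in control cells, and RPL3-201 had 87.4 FPKM after cytokines and 156 FPKM in control cells, both with a q of 8.33e-04 in the authors' deposited isoform table. RPLP0-203 had 364 FPKM after cytokines and 567 FPKM in control cells. RPSA-201 had 295 FPKM after cytokines and 443 FPKM in control cells, while RPSA-207, a transcript with a retained intron, had 42.9 FPKM after cytokines and 39.8 FPKM in control cells and did not pass. RPL4-215, a minor protein-coding form, had the lowest log2 fold change of all that passed, -0.99. RPS4X-202, a transcript with no coding part annotated, had 22.4% of the RPS4X isoform FPKM after cytokines and 28.1% in control cells.

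RPL22L1 was the gene whose leading isoform differed between the groups. Its protein-coding form RPL22L1-202 held 37.5% of the isoform FPKM after cytokines and 48.9% in control cells, with 4.67 FPKM after cytokines and 6.29 FPKM in control cells. Its form annotated for nonsense-mediated decay, RPL22L1-204, held 54.1% after cytokines and 47.4% in control cells. Neither change passed in the authors' deposited isoform table (q 0.27 and 0.753). Some loci also held assembled transcripts without an annotated name. One of these made up 56.8% of the RPS6 FPKM after cytokines and 61.2% in control cells, with a log2 fold change of -0.50 and a q of 8.33e-04 in the deposited isoform table. In RPL11 such a transcript made up 46.6% after cytokines and 42.0% in control cells, with a log2 fold change of -0.01 that did not pass.

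Other messengers known for TOP tracts were mostly lower as well. Of a list of 20 genes known for such starts, most of them of the translation machinery, 19 were tested in the authors' deposited count table. Of these, 16 were lower, 2 were higher and 1, EEF1D, did not pass, with a median log2 fold change of -0.37, where 19.7% of all tested loci and 45.3% of those with at least 1000 counts were lower. By the authors' deposited FPKM gene table, 12 of the 19 were lower and 1 was higher, where 17.9% of all genes tested were lower. VIM had no reads in the deposited count table and was not tested there. EEF1A1, which brings transfer RNAs to the ribosome, was at -0.47 ± 0.02, and EEF2, which moves the ribosome along, was at -0.17 ± 0.01 but did not pass in the deposited FPKM gene table (q 0.0722). EIF3L, a subunit of initiation factor 3, was at -0.62 ± 0.03, and RACK1, a scaffold on the small subunit, was at -0.24 ± 0.03. FAU, which encodes a ribosomal protein fused to a ubiquitin-like sequence, was at 0.39 ± 0.03 at a locus it shares with SYVN1, and its own isoforms had 281 FPKM after cytokines and 255 FPKM in control cells. The FAU locus was at 0.22 in the deposited FPKM gene table and did not pass there (q 0.058). RPL36AL, a paralog of RPL36A that the symbol rule does not take in, was at 0.40 ± 0.03 at a locus shared with DNAAF2, and its own isoforms had 181 FPKM after cytokines and 125 FPKM in control cells. The deposited FPKM gene table gave a log2 fold change of 0.51 for the RPL36AL locus.

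The messengers that encode the mTORC1 pathway and its TOP regulators are given as the other genes of the pathway. Of 15 such genes in the authors' deposited count table, 8 were lower, 2 were higher and 5 did not pass. Their median log2 fold change was -0.11. Among all loci tested there, 19.7% were lower and 18.0% higher. Among those with at least 1000 counts, 45.3% were lower and 32.9% higher. DEPTOR and DDIT4 had fewer than 1000 counts in both groups. In the deposited FPKM gene table only EIF4EBP1, EIF4EBP2 and MLST8 were lower, and LARP1, DEPTOR and DDIT4 were higher. Of all genes tested in that table, 17.9% were lower and 17.8% higher. EIF4EBP1 and EIF4EBP2, which hold back cap-dependent initiation when mTORC1 is off, were at -0.55 ± 0.06 and -0.57 ± 0.03. MTOR was at -0.27 ± 0.03, and at -0.16 without passing (q 0.148) in the deposited FPKM gene table. LARP1, which binds the TOP tract, was at 0.25 ± 0.02, and DEPTOR, an inhibitor of mTOR, was at 1.16 ± 0.08. These are messenger levels and say nothing of kinase activity.

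Mitochondrial ribosomal proteins serve the separate ribosome inside mitochondria and were set beside the cytosolic members. Of 77 such loci in the authors' deposited count table, 32 were lower, 12 were higher and 33 did not pass, with a median log2 fold change of -0.10. The 41.6% that were lower stands beside 19.7% among all tested loci and 45.3% among those with at least 1000 counts. The mitochondrial list was not limited to loci of at least 1000 counts. Their SEs were larger, with a median of 0.053 against 0.025 for the cytosolic members, so fewer small changes could pass. The difference between the lists was not tested.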

How the data were processed

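Poly(A) RNA of 6 libraries was sequenced with a directional kit, per the labels' protocols. The submitters' processing notes name STAR 2.5.2b, FastQC 0.10.1 and bcl2fastq, then StringTie, DESeq and Cuffdiff 2.2.1, and the genome build hg38. For the program that counted reads, its strand setting and its gene models, nothing is stated in the labels or headers. The authors deposited as signal in the count table the mean over 6 libraries of size-factor normalized counts, per the file headers. Fold changes, and their SE in the count table, were deposited on the log2 scale. The score in the deposited tables is the authors' test statistic. The p-values, adjusted p-values and q-values are those of the authors' tests. FPKM values are the authors' group values as deposited.

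Group means were computed from the mean count and the fold change, assuming equal weight of 3 libraries per group, and isoform shares from annotated isoform FPKM. Scripts ran in Python 3.11.15 with scipy 1.17.1, numpy 2.4.6 and pandas 2.3.3, figures were drawn with matplotlib 3.10.9, and the scripts were checked on simulated data. Coordinates, transcript types and coding lengths are from GENCODE release 44, and starts from RefSeq on GRCh38.p14. Members and lists were chosen with earlier results of these data known. Full values go to the 5 largest rises and falls past the threshold (4 members rose), the 5 most abundant, the paralogs with their parents, the stalk, RPL5, RPL11, RPL13A, and genes the 2 gene tables call in opposite directions (none) or that only 1 of them could test (none). Values of a few single genes are not reported here. Other members named were chosen after their values were seen. The deposited tables hold group values, so no test of per-library values was made, and edgeR was not run. Reads from pseudogene copies, which are numerous for these genes, and from overlapping genes at a locus may not have been told apart. Counting error per library cannot be given from group values.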

Additional observations from a re-analysis of the deposited data

How the results depend on the processing

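Of 40 summary values recomputed under the alternatives, 38 stayed within 1.5 times for a count or within 0.025, the median SE of a member, for a median, and none reversed. The small minus large difference of medians ran from 0.0036 to 0.034. Re-centring on loci of at least 1000 counts moved the median log2 fold change of the members to -0.20. At a q under 0.01, 3 isoforms were higher in place of 5, since fewer pass a stricter limit. The deposited FPKM gene table called 52 members in place of 71. Of 50 values for single named genes, 45 stayed past or short of the threshold as in the count table and 5 no longer passed. No paired analysis was possible because the tables hold group values and no columns per library. For the same reason, leaving out each replicate was not run, so whether 1 library carries a value was not tested.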

Other observations

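Loci named only for ribosomal protein pseudogenes numbered 848, of which 607 had reads and 310 were tested in the authors' deposited count table. Of these, 28 were lower and 4 were higher, with a median log2 fold change of -0.07, where 37.7% of all tested loci passed in either direction. Their summed counts equalled 5.18% of those of the 84 member loci. RPS2P5 had 4334 normalized counts after cytokines and 5660 in control cells (log2 fold change -0.38 ± 0.03), beside -0.34 ± 0.02 for RPS2. RPS3AP6 had 3113 counts after cytokines and 4461 in control cells (log2 fold change -0.52 ± 0.04), beside -0.47 ± 0.02 for RPS3A. RPL7P9 was at -0.42 ± 0.05, beside -0.45 ± 0.02 for RPL7. RPL41P1 had 5561 counts after cytokines and 5819 in control cells (log2 fold change -0.07 ± 0.03), beside the same value for RPL41. Whether these reads come from the pseudogenes or from the genes they copy was not tested. RefSeq lists 137 pseudogenes for RPL21 and 95 for RPL23A.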
